A study of Mus musculus with 6 samples.

Results

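Chemokine and chemoattractant receptors are the sensors that tell a macrophage where to move. The genes examined are 9, chosen by symbol from the 35976 rows of a count table: Cxcr4, Cx3cr1, Ccr1, Ccr2, Ccrl2, C5ar1, C3ar1, P2ry6 and Cmklr1. All 9 were found, and 7 of them had enough counts to be tested. The cells were RAW264.7, a mouse line with macrophage properties that grows in culture. They were exposed to itaconate for 24 h (3 libraries) or left with no treatment (3 libraries). Itaconate is a metabolite that macrophages produce from cis-aconitate when activated. The dose and form of itaconate, a vehicle for the controls and the age of the cultures are not given in the labels. All libraries come from 1 established line. No label says whether replicates were grown as separate cultures, so each p-value rests only on the spread among these libraries, which may be technical. RNA was counted by 3′ tag sequencing (Lexogen QuantSeq), which reads the end of each polyadenylated transcript.

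These receptors span the membrane as bundles of helices. Except for the product of Ccrl2, they signal through heterotrimeric G proteins, mostly of the Gi class. Targets include phosphoinositide 3-kinase, Rac and the actin cytoskeleton. Chemokine receptors bind small secreted chemokines, anaphylatoxin receptors bind fragments released from complement proteins, and P2Y receptors bind extracellular nucleotides. In macrophages and monocytes they are known for recruitment into tissue, retention in the marrow and patrolling of vessels. Arrestins, receptor kinases and RGS proteins, which speed up GTP hydrolysis by G proteins, end the signal.

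The libraries held 5202626 to 6098934 counts, so 3 counts, the level that a count of 0 allows, correspond to 0.487 to 0.565 CPM (counts scaled to a common total after correction by the trimmed mean of M-values, TMM). Such limits cover counting error only. Mitochondrial transcripts took 4.80% to 5.47% of counts in itaconate libraries and 4.52% to 5.32% in control libraries. The 10 genes with the most counts took 10.3% to 10.6% of counts in itaconate libraries and 8.93% to 9.66% in control libraries (exact two-sided permutation p = 0.1, the lowest that 3 against 3 allows), and the part of this difference in the results was not tested. Markers of 5 other cell types were low, while those of dendritic cells are given with the macrophage markers at the end. The summed levels were 5.27 to 6.12 CPM in itaconate and 4.69 to 6.50 CPM in control libraries for 10 neutrophil markers, and 2.27 to 7.47 and 1.62 to 4.85 CPM for 9 T and NK cell markers. They were 1.49 to 4.37 and 1.30 to 6.03 CPM for 7 B cell markers and 0.565 to 2.10 and 0.670 to 2.11 CPM for 7 fibroblast markers. The 6 epithelial markers summed to 0 CPM in every itaconate library and to at most 1.12 CPM in a control library. Ly6g, Mpo, Cd3e, Col3a1 and Krt8 had 0 counts throughout. Csf3r, Lck and Cr2 could be tested and were not called. Their means were 4.26, 5.32 and 2.23 CPM in itaconate and 2.67, 2.60 and 2.89 CPM in control libraries. Elane had 0 counts in total after itaconate and 20 without.

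The comparison asks which chemoattractant receptor transcripts differ after exposure to itaconate. Exposed cells held 8.44-fold more transcript of Cxcr4 and 7.59-fold less of Cx3cr1. The anaphylatoxin receptor genes C3ar1 and C5ar1 and the nucleotide receptor gene P2ry6 fell as well, by 2.66-, 1.87- and 2.32-fold. Ccr2 and Ccrl2 did not pass the test, and Ccr1 and Cmklr1 were too sparse to be tested. In all, 1 of the 7 tested receptors rose, 4 fell and 2 were not called (edgeR quasi-likelihood test, Benjamini-Hochberg adjusted p under 0.05 over 10636 genes). Over all genes tested, 21.9% were called in either direction, 10.7% higher and 11.2% lower. The median log2 fold change was -0.90 over the 7 receptors and -0.0067 over all genes tested. The receptors were chosen with earlier results of these data known, so this contrast may partly reflect the choice. In bulk RNA, fewer cells that express a receptor and less transcript in each cell cannot be told apart.

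**Figure D1:**
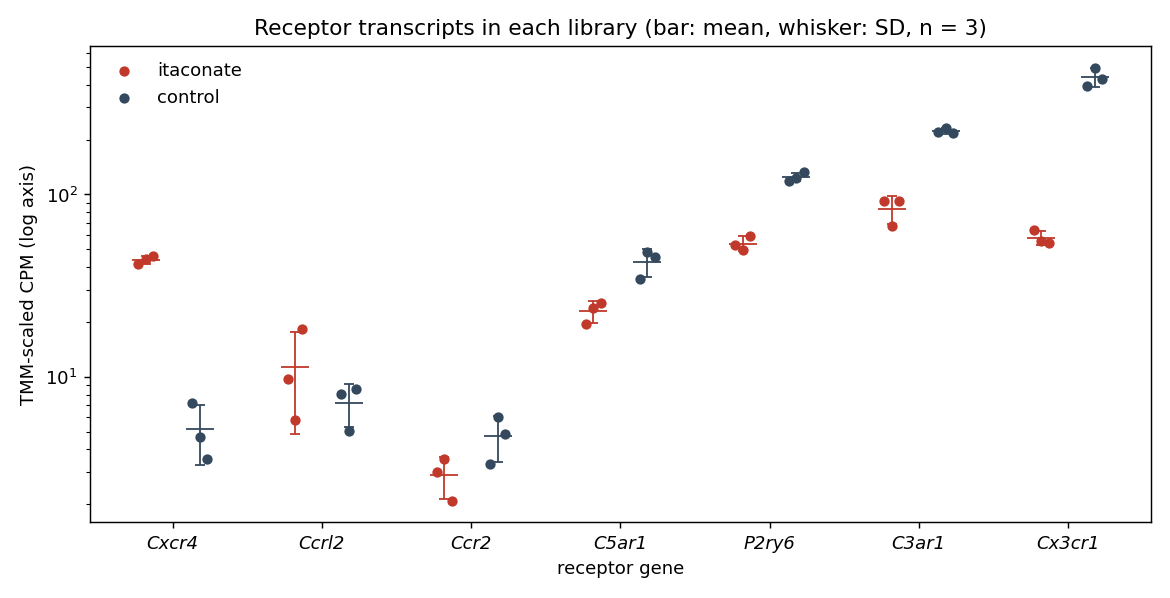
TMM-scaled CPM of the 7 tested receptors (log axis) in each itaconate library (red) and each control library (dark), with the mean and SD of 3 libraries. Cxcr4 is the gene whose 3 itaconate libraries, at 41.6 to 45.8 CPM, sit above its control libraries, while the libraries overlap for Ccrl2 and Ccr2.

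Cxcr4 encodes the receptor of the chemokine CXCL12, known for holding leukocytes in the bone marrow, and lies on chromosome 1 from 128588199 to 128592299 (GRCm38.p6, minus strand). It had 221, 237 and 262 counts in itaconate libraries, against 43, 29 and 19 counts in control libraries. In scaled units these are 41.6, 44.3 and 45.8 CPM after itaconate, against 7.20, 4.71 and 3.55 CPM without treatment. The 3 exposed libraries were tightly grouped and all lay above every control library. The log2 fold change was 3.08 ± 0.24 (SE, edgeR adjusted p = 9.47e-15), with a 95% interval of 2.60 to 3.56.

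Cx3cr1 encodes the receptor of fractalkine, a membrane-bound chemokine, and is widely used as a marker of patrolling monocytes and microglia. It lies on chromosome 9 from 120048683 to 120068296 on the minus strand. Itaconate libraries had 64.2, 55.9 and 54.0 CPM (341, 299 and 309 counts), against 391.9, 496.4 and 432.1 CPM (2341, 3056 and 2316 counts) in control libraries. Every exposed library was far below every control library, and the log2 fold change was -2.92 ± 0.10 (SE, edgeR adjusted p = 3.26e-28). Its exons overlap those of Gm33858 on the opposite strand, which had 0 counts in the table.

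Ccr2, the receptor that brings monocytes out of the marrow toward CCL2, was near the lower end of what could be tested. Its counts were 16, 19 and 12 after itaconate, against 20, 37 and 26 in control libraries, and the groups overlapped once scaled (2.10 to 3.55 CPM in itaconate and 3.35 to 6.01 CPM in control libraries). The log2 fold change of -0.71 ± 0.56 (SE) was not called (edgeR adjusted p = 0.406), and its 95% interval of -1.81 to 0.38 holds both a fall as large as that of C3ar1 and a small rise. Ccr1, which in mouse binds CCL3, CCL5, CCL6 and CCL9, had 0, 0 and 5 counts in itaconate libraries, against 4, 5 and 1 in control libraries. The totals of 5 (95% exact Poisson interval 1.62 to 11.7) and 10 (4.80 to 18.4) counts do not allow a statement on direction.

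Ccrl2 encodes an atypical receptor that binds the chemoattractant chemerin and presents it without signalling of its own. It had 9.79, 5.79 and 18.4 CPM in itaconate libraries (52, 31 and 105 counts), against 8.04, 5.04 and 8.58 CPM in control libraries (48, 31 and 46 counts). The third exposed library stood apart from the other two, which lay within or just above the control range. The log2 fold change of 0.65 ± 0.37 (SE) was not called (edgeR adjusted p = 0.217, 95% interval -0.065 to 1.37). Without itaconate replicate 3 it was 0.12 ± 0.42 (adjusted p = 0.906), and without itaconate replicate 2 it was 0.97 ± 0.37 (adjusted p = 0.0643). Cmklr1, the signalling receptor of chemerin, had 0, 3 and 0 counts after itaconate, against 0, 1 and 0 in control libraries. Its totals of 3 (95% exact Poisson interval 0.619 to 8.77) and 1 (0.0253 to 5.57) counts put it at the floor in both groups.

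C3ar1 and C5ar1 encode the receptors of the complement fragments C3a and C5a. C3ar1, on chromosome 6 from 122847140 to 122856157, had 92.3, 67.1 and 91.8 CPM in itaconate libraries (490, 359 and 525 counts), against 218.8, 231.8 and 216.8 CPM in control libraries (1307, 1427 and 1162 counts). Its groups did not overlap, and the log2 fold change was -1.41 ± 0.11 (SE, edgeR adjusted p = 4.39e-15). C5ar1, on chromosome 7 from 16246743 to 16259540, had 19.4, 23.9 and 25.4 CPM after itaconate (103, 128 and 145 counts), against 34.5, 48.6 and 45.3 CPM without treatment (206, 299 and 243 counts). This was the smallest of the 4 falls, with a log2 fold change of -0.90 ± 0.19 (SE, edgeR adjusted p = 0.000232) and again no overlap.

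P2ry6 encodes the receptor of UDP, a nucleotide that dying or stressed cells release and that is known to prompt phagocytosis in microglia. It lies on chromosome 7 from 100937630 to 100975498. The 3 itaconate libraries had 52.5, 49.5 and 59.5 CPM (279, 265 and 340 counts), against 119.0, 123.6 and 132.3 CPM (711, 761 and 709 counts) in the 3 control libraries. All exposed libraries lay below all control libraries, and the log2 fold change was -1.21 ± 0.12 (SE, edgeR adjusted p = 2.40e-11).

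All 5 called receptors had groups of libraries that did not overlap, as did 35.6% of all genes tested. The 5 calls held in each of the 13 alternative fits, 6 of which left out 1 library. Cxcr4 ranged from 2.88 to 3.40, Cx3cr1 from -3.00 to -2.83, C3ar1 from -1.48 to -1.27, P2ry6 from -1.29 to -1.16 and C5ar1 from -1.03 to -0.79 on the log2 scale. As a check for sequence shared with relatives, of the 50-base stretches in the last 300 bases of the coding transcripts of the 9 genes (GENCODE M21), 0 were found in transcripts of another gene.

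**Figure D2:**
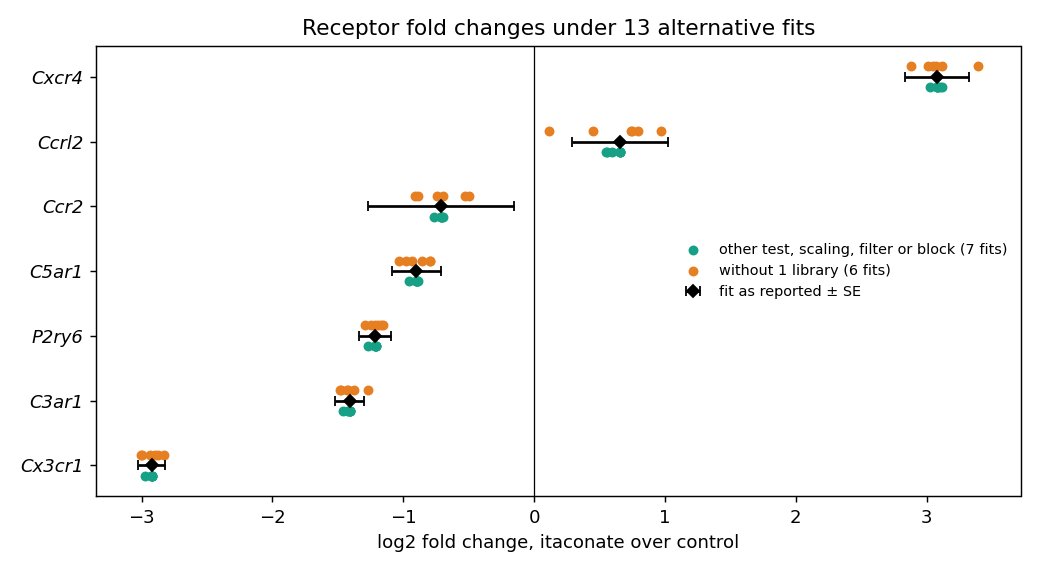
Log2 fold change of itaconate over control for the 7 tested receptors as reported (black, ± SE), in the 6 fits that leave out 1 library (orange) and in the other fits (green; 7, or 6 for Ccr2, which the stricter filter removed). The points of the 5 called receptors stay close to the reported value, and Ccrl2 spreads most, from 0.12 to 0.97.

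Within a single library, the ratio of the counts of 2 receptors does not depend on how libraries are scaled. It compares the change between genes, not their levels, since transcript length and priming differ. Per 100 counts of Cx3cr1 there were 64.8, 79.3 and 84.8 counts of Cxcr4 in itaconate libraries, against 1.84, 0.949 and 0.820 in control libraries. The mean log2 ratio was -0.40 ± 0.20 after itaconate and -6.47 ± 0.62 without treatment (SD, n = 3), a difference of 6.07 (p = 0.1 in an exact two-sided permutation test, which cannot go lower with 3 against 3). The falls were not of equal depth. Per 100 counts of C3ar1 there were 69.6, 83.3 and 58.9 counts of Cx3cr1 after itaconate, against 179.1, 214.2 and 199.3 in control libraries, a log2 difference of -1.50 without overlap. P2ry6 and C3ar1 had ratios that overlapped between the groups, with a log2 difference of -0.21 for C3ar1 over P2ry6 (exact permutation p = 0.2). Of the 10 pairs of called receptors, 8 had ratios that did not overlap, and the smallest exact permutation p adjusted over the pairs was 0.125. The separation was very narrow for C5ar1 per 100 counts of C3ar1. This ratio was 21.02 to 35.65 in itaconate libraries and 15.76 to 20.95 in control libraries. The pairs were formed only from receptors called in these same libraries. Cxcr4 was higher and the others lower in every itaconate library, so the separation of the Cxcr4 ratios follows from that choice. The share over pairs of other genes was not computed.

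**Figure D3:**
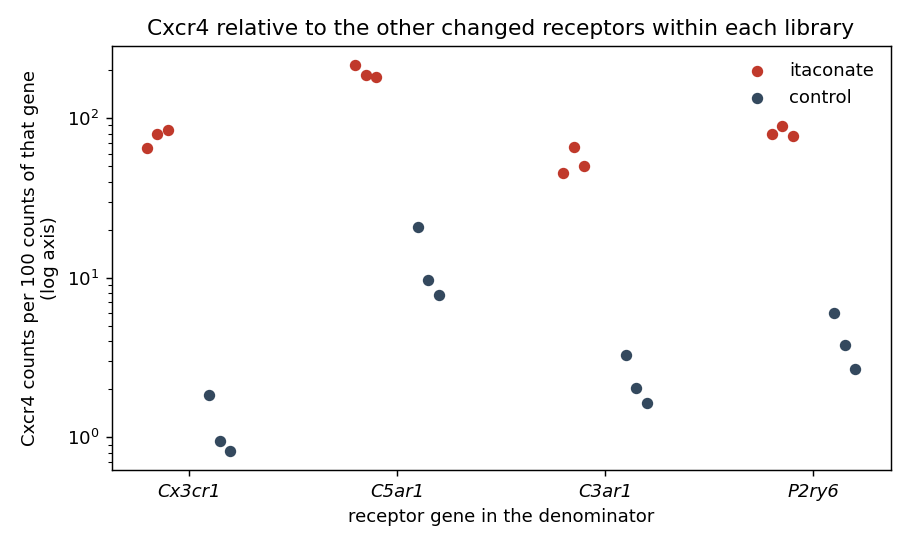
Counts of Cxcr4 per 100 counts of each of the other 4 called receptors (log axis), 1 point for each itaconate library (red) and each control library (dark). The ratio to Cx3cr1 is 64.8 to 84.8 in itaconate libraries and 0.820 to 1.84 in control libraries. No ratio shown overlaps between the groups, which follows from the separation of each gene's own levels.

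Ccr1, Ccr2, Ccrl2 and Cx3cr1 are 4 of 15 chemokine receptor genes examined on chromosome 9. Ccr1 and Ccr2 sit in a cluster of receptor genes, in which Ccr1l1 and Ccr3 had 0 counts. Cx3cr1 lies outside it, and its neighbour Ccr8, 23.8 kb away, also had 0 counts in every library. Over the other 19 chemokine receptor genes examined, 9 had 0 counts throughout, 2 could be tested and 0 were called by edgeR, limma-voom or DESeq2 (0 at an unadjusted p under 0.05). Cxcr3, the receptor of interferon-induced chemokines, had a log2 fold change of -1.19 ± 0.73 (SE, edgeR adjusted p = 0.262) and Cxcr5, which guides lymphocytes to follicles, of 0.29 ± 0.75 (adjusted p = 0.842).

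The promoter sequences of the receptors were then compared. RefSeq windows of GRCm38.p6, from 250 bases before to 50 bases after the start site, were at hand for 8 of the 9 genes (all but P2ry6). The windows of the gene that rose and of the genes with the largest falls are given 5′ to 3′ on the coding strand, all on the minus strand of the chromosome. Capitals mark matches, on either strand, to 8 short motifs whose letters are given where their matches are described.
Cxcr4 (chr1:128592250-128592549): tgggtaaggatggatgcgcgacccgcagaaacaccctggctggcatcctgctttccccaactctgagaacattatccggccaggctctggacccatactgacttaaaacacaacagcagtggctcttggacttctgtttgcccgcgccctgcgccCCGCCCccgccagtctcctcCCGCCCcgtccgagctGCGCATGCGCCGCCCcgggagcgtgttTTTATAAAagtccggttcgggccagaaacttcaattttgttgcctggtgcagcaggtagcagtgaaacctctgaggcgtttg
Cx3cr1 (chr9:120068247-120068546): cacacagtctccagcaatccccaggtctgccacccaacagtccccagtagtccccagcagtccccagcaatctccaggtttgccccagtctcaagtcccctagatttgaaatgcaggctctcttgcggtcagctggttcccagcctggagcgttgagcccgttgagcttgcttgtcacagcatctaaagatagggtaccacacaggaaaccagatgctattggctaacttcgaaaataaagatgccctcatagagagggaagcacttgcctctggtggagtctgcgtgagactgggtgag
C3ar1 (chr6:122856108-122856407): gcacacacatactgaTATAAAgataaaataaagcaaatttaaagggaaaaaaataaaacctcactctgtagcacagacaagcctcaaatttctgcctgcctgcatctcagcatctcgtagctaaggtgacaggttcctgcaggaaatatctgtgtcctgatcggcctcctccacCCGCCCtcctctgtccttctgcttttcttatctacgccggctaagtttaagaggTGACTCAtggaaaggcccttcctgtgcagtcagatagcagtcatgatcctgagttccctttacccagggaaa

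The Cxcr4 window held a TATA box (TATAAA) beginning 30 bases before the start site, with a further match that overlaps it on the other strand. It held 3 GC boxes of the kind that SP factors bind (GGGCGG). It also held the core of the element of the factor NRF1 (GCATGCGC), matched on both strands as overlapping hits. The GC box nearest the start site overlaps that core by 1 base. The NRF1 core is found in 2.71% of all 32851 windows, the TATA box in 13.6% and the GC box in 35.7%. The Cx3cr1 window held 0 matches to any of the 8 motifs. In C3ar1 an AP-1 element (TGANTCA) began 22 bases before the start site (7.81% of windows hold one) with 1 GC box, and a TATA box began 235 bases before it. Ccrl2 (first start site) held 1 GC box too. The antioxidant response element (TGACNNNGC), found in 12.4% of windows, had 1 match each in Ccrl2 (first start site) and Cmklr1, which were not called or not tested, and the interferon-stimulated element (GAAANNGAA, in 8.56% of windows) had 1 match each in C5ar1 and Ccr2. The E-box (CACGTG) occurs in 7.15% of windows and the ETS letters (GAGGAA) in 28.3%. Cmklr1 held 1 of each, and Ccr1 held 1 ETS match. A match is a description of letters, not a bound site.

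The Cxcr4 window was also richer in CpG than those of the other receptors. It held 20 CpG dinucleotides, more than 73.5% of all windows, against a median of 7. Cmklr1 held 8, Ccrl2 held 6 to 8 over its start sites, Cx3cr1 and C3ar1 held 5 each, C5ar1 held 3, and Ccr1 and Ccr2 held 1 each. The G and C share was 59.3% for Cxcr4 and 38.0% to 54.3% for the others, with a median of 52.7% over all windows.

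**Figure D4:**
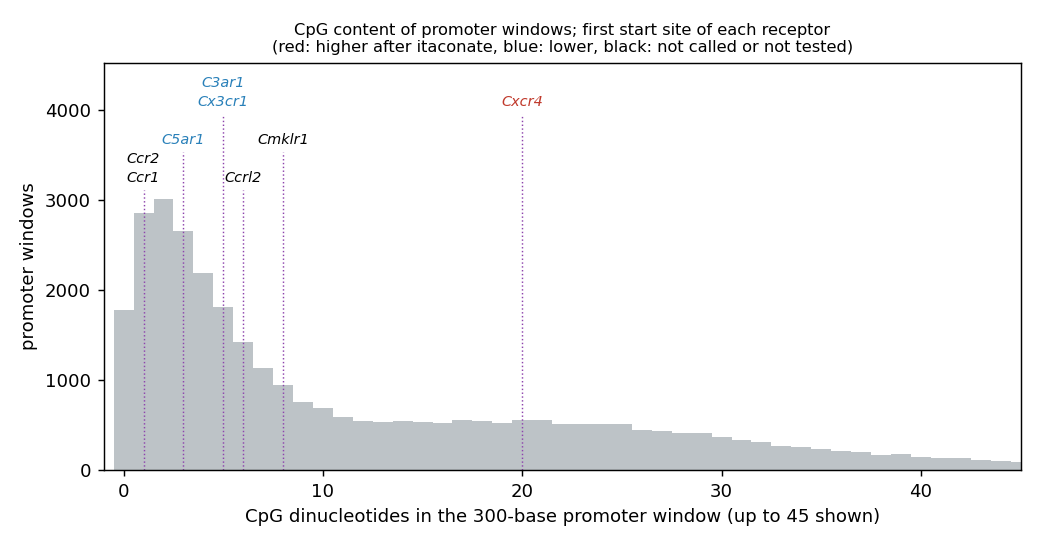
Number of promoter windows (y axis) by their count of CpG dinucleotides (x axis, up to 45), with the first start site of each of the 8 receptors marked. Cxcr4, the receptor that rose (red), is at 20, and the receptors that fell (blue) are at 3 and 5.

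Other chemoattractant, lipid and nucleotide receptors moved in both directions. Of 30 examined, 9 could be tested, of which 1 rose, 3 fell and 5 were not called (median log2 fold change -0.18). The share called was 44.4%, against 21.9% of all genes tested. Hcar2, the receptor of niacin and beta-hydroxybutyrate, had 2.98 ± 1.13 CPM after itaconate and 16.3 ± 2.70 CPM without (SD, n = 3), a log2 fold change of -2.44 ± 0.37 (SE, edgeR adjusted p = 7.28e-07). Gpr183, which follows oxysterols, had a log2 fold change of -1.33 and the leukotriene receptor gene Cysltr1 of -0.82, both called lower. P2ry2, the receptor of ATP and UTP, went the other way from P2ry6 and rose by 0.96 ± 0.26 (21.5 ± 6.15 CPM after itaconate and 11.0 ± 0.194 CPM without). Its call was lost without itaconate replicate 1 (0.73, edgeR adjusted p = 0.0869), and that of Cysltr1 without control replicate 2 (-0.69, adjusted p = 0.0745). S1pr2, a sphingosine phosphate receptor gene, at 0.40 ± 0.16 (SE, adjusted p = 0.0721), and Ptafr, the receptor of platelet-activating factor, at -0.18 ± 0.18 (adjusted p = 0.536) were not called.

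The ligands were examined in the same cells. Of 16 ligand and precursor genes, 8 had 0 counts in every library, among them Cxcl12 for CXCR4, Cx3cl1 for CX3CR1, Hc, the precursor of C5a, and Rarres2, the precursor of chemerin. Of the 7 tested, 1 rose, 5 fell and 1 was not called, with a median log2 fold change of -1.03. The share called was 85.7%, against 21.9% of all genes tested. C3, the precursor of C3a, fell with its receptor gene C3ar1, to 1.93 ± 0.771 CPM after itaconate, against 12.6 ± 3.71 CPM (SD, n = 3, log2 fold change -2.69 ± 0.43, edgeR adjusted p = 2.85e-06). Among chemokines that bind CCR1 in mouse, Ccl9 had 235.4 ± 5.47 CPM after itaconate and 481.8 ± 36.2 CPM without, Ccl6 had 4.65 ± 0.895 and 14.6 ± 0.965 CPM, and Ccl5 had 4.86 ± 1.36 and 11.1 ± 2.25 CPM, all called lower. Ccl3 rose to 240.9 ± 27.8 CPM, against 165.1 ± 12.1 CPM, while its close relative Ccl4 fell by 0.71 on the log2 scale. The Ccl5 call was lost without itaconate replicate 3 (adjusted p = 0.0660) or control replicate 2 (adjusted p = 0.111). Mif, a cytokine that also binds CXCR4, had 0.17 ± 0.08 (SE, adjusted p = 0.162) and was called without itaconate replicate 1 (0.26, 0.0391).

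**Figure D5:**
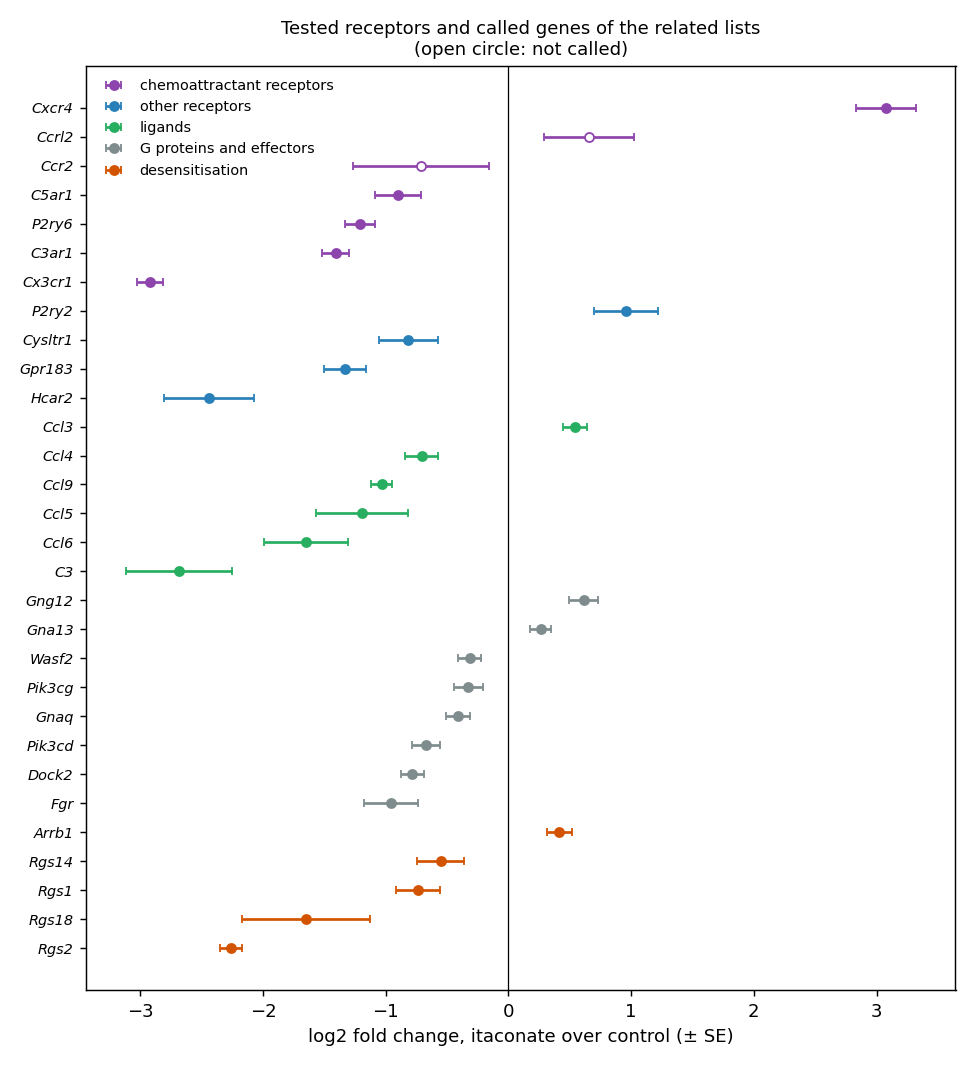
Log2 fold change of itaconate over control (± SE) for the 7 tested receptors (purple, open where not called) and for called genes of the related lists, in colours by list. Cxcr4 lies farthest to the right at 3.08, and Cx3cr1 (-2.92), C3 (-2.69), Hcar2 (-2.44) and Rgs2 (-2.26) lie farthest to the left.

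G proteins and effectors were called about as often as genes at large. Of 33 tested, 2 rose, 7 fell and 24 were not called, or 27.3%, near the 21.9% of all genes, and the median was -0.12. Dock2, the Rac activator that leukocytes need to migrate, had 152.7 ± 13.5 CPM after itaconate and 263.1 ± 19.4 CPM without (SD, n = 3), a log2 fold change of -0.78 ± 0.10 (SE, edgeR adjusted p = 4.36e-09). The phosphoinositide 3-kinase gene Pik3cd (-0.67), the Src family kinase gene Fgr (-0.96), Gnaq (-0.41) and Wasf2 (-0.32), which acts on actin, also fell. Pik3cg, the kinase that Gi-coupled receptors activate, was called lower at -0.33 (outside the naming rule, chosen after its values were seen). Gng12 rose by 0.61 and Gna13 by 0.26. The call of Wasf2 was lost without control replicate 3 (-0.28, edgeR adjusted p = 0.0589). That of Gna13 was lost with library totals in place of TMM (0.21, 0.0704) and without itaconate replicate 2 (0.24, 0.101) or 3 (0.24, 0.0576) or control replicate 1 (0.26, 0.0568) or 2 (0.26, 0.0669). Gnai2, the main Gi subunit of leukocytes, had -0.17 ± 0.07 (SE, adjusted p = 0.0955). It was called lower with library totals (-0.22, 0.0155), without itaconate replicate 3 (-0.21, 0.0365) and without control replicate 3 (-0.23, 0.0319). Cdc42 was not called (-0.074, 0.550).

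Among genes that end receptor signals, the called ones mostly fell. Of 12 tested, 1 rose, 4 fell and 7 were not called, with a median of -0.17. The share called was 41.7%, against 21.9% of all genes tested. Over all genes tested, 10.7% were called higher and 11.2% lower. Rgs2, which acts on Gq, had 129.0 ± 15.1 CPM after itaconate and 617.9 ± 15.1 CPM without (SD, n = 3), a log2 fold change of -2.26 ± 0.09 (SE, edgeR adjusted p = 5.35e-26). Rgs1, a brake on chemokine receptor signals, had a log2 fold change of -0.73, Rgs18 of -1.65 and Rgs14 of -0.55, all called lower. Arrb1, which encodes an arrestin, rose by 0.41 ± 0.10, while Arrb2 (-0.097, adjusted p = 0.453) and the receptor kinase gene Grk2 (0.083, 0.635) were not called. The counts called came to 3 of this list without itaconate replicate 1, control replicate 2 or control replicate 3. Rgs18 lost its call without each of these (-1.15, -1.54 and -1.62, adjusted p = 0.0960, 0.0857 and 0.0590). Rgs14 lost it without itaconate replicate 1 (-0.43, 0.162) or 2 (-0.56, 0.0817), without control replicate 1 (-0.59, 0.0544), 2 (-0.55, 0.0850) or 3 (-0.52, 0.0999), and with no filter on low counts (-0.55, 0.0537).

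Over 8765 other named genes of at least 5 CPM, those with the profile nearest to that of Cxcr4 across the 6 libraries were Ptgir, the prostacyclin receptor gene, Srxn1, which encodes sulfiredoxin, and Gadd45g, a stress gene. The measure was the Euclidean distance between mean-centred log2 CPM profiles, at 0.63, 0.73 and 0.75. For genes that differ this much between the groups it depends mostly on the fold change. The log2 fold changes were 3.09 for Ptgir, 3.40 for Srxn1 and 3.85 for Gadd45g, beside 3.08 for Cxcr4. Shared regulation was not tested. Ptgir had 67.2, 63.2 and 83.1 CPM in itaconate libraries, against 10.2, 6.50 and 8.40 CPM in control libraries. Nearest to Cx3cr1 were the antiviral synthetase gene Oas2 (distance 0.37), Tnip3, whose product binds the NF-kB inhibitor A20 (0.39), and the interferon-induced Ifi44 (0.58). Tnip3 had 9.98, 12.1 and 9.79 CPM after itaconate, against 83.7, 104.9 and 86.2 CPM without treatment.

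Among markers of the macrophage itself, the called ones mostly fell. Of 12 macrophage markers, 1 rose, 7 fell and 4 were not called, so that 66.7% were called, against 21.9% of all genes tested, and the median log2 fold change was -0.29. Their summed level was 8945 to 9222 CPM in itaconate libraries and 11202 to 12634 CPM in control libraries (p = 0.1 in the same exact permutation test). Csf1r, the M-CSF receptor gene, had -1.01 and Spi1, the lineage factor PU.1, -0.34 on the log2 scale, while Cd68, a lysosomal glycoprotein gene, had 0.30 and Adgre1, which encodes F4/80, was not called at -0.17. The 7 dendritic cell markers summed to 37.4 to 41.2 CPM after itaconate and to 15.3 to 21.1 CPM in control libraries (exact permutation p = 0.1). As a mean of log2 CPM they differed by 0.28 (itaconate minus control, exact permutation p = 0.2). The sum was carried by Itgax (1.04) and Zbtb46 (1.33), while Siglech and Cd209a had 0 counts. Among sparse ones, Batf3 had 27 counts in all after itaconate and 0 without. Clec9a (2 and 13) and Flt3 (0 and 3) went the other way. The part of the macrophage and dendritic cell markers in the receptor result was not tested.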

How the data were processed

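The authors deposited raw counts of reads per gene symbol, not normalized. Per the submitters' processing notes, STAR 2.7.5a, HTSeq 0.6.1, edgeR and the build mm10 were used. How reads were trimmed, stranded, multi-mapped and annotated is not given in the sources used here. Its header line starts with 2 empty cells while data lines start with the symbol, and the nth name was paired with the nth count. All 6 columns were used.

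Genes were kept by edgeR's filterByExpr (minimum count 10, minimum total 15), which left 10636 genes with 99.74% of counts, and libraries were scaled by TMM. Groups were compared by the quasi-likelihood test of edgeR 4.0.16 (R 4.3.3, robust) with no other term, two-sided, with Benjamini-Hochberg adjustment over all genes tested. The SE is the absolute log2 fold change over the square root of F, and 95% intervals are normal. The same code was tested on simulated data with known changes. Alternatives were DESeq2 1.42.0, limma-voom (limma 3.58.1), other scalings and filters, a replicate block and leaving out each library. Replicate libraries differed by more than sampling noise (chi-square per gene 4.83 to 7.71).

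The receptors, the 5 related gene lists, the marker lists and the motifs were chosen with earlier results of these data known. Of 178 genes in the lists, 176 were found. Genes were named by a rule: every receptor, up to 8 called genes of a related list by smallest p, 2 uncalled ones by highest mean, and the 3 profiles nearest to the receptor genes with the largest rise and fall. Marker genes and list members without counts are given besides, and some genes that the rule or the lists hold are not reported here. Symbols were matched to RefSeq GRCm38.p6, the assembly that mm10 names.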

Additional observations from a re-analysis of the deposited data

How the results depend on the processing

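The 5 receptor calls, and the lack of a call for Ccr2 and Ccrl2, were unchanged in all alternatives run, except that Ccr2 was not tested under the stricter filter (minimum count 30). Genes called came to 2324 as reported and to 1832 to 2086 without 1 library. Library totals in place of TMM shifted the median of all genes to -0.059 on the log2 scale and gave 935 higher and 1429 lower calls. Called genes of the list that ends receptor signals numbered 3 to 5 without 1 library. Grk2 had 0.083 as reported and -0.019 (without itaconate replicate 3, edgeR adjusted p = 0.941) to 0.19 without 1 library. As a mean of log2 CPM in place of a sum, the neutrophil markers differed by -0.32 and the T and NK cell markers by -0.027 (itaconate minus control), against summed differences of 0.259 and 2.67 CPM (exact permutation p = 0.1, 0.8, 0.7 and 0.3). The neutrophil sum was carried mostly by Csf3r and the T and NK cell sum by Lck, each with a higher mean after itaconate. Elane, Ltf and Ngp had 0 counts after itaconate, against totals of 20, 6 and 2 in control libraries. S100a8 (21 and 18 counts) and Retnlg (1 and 0) went the other way. The causes were not tested.

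The libraries share replicate numbers in their titles. Deviations from the group means of same-numbered libraries correlated at -0.014, 0.017 and 0.038, against -0.042 to 0.028 for libraries of different numbers. Whether same-numbered libraries share a culture or batch is not given in the labels and cannot be told from these values. With the number as a replicate block, 2247 genes and the same count of 5 receptors were called. At this depth the interval of Ccr2 includes a change of the size seen for C5ar1, and Ccr1 and Cmklr1 were below the filter.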
